A study of Mus musculus with 8 samples.

Results

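The genes described here are 10 genes of fat cell formation and lipid uptake, namely Pparg, Cebpa, Cebpb, Cebpd, Fabp4, Fabp5, Lpl, Plin1, Adipoq and Cd36, measured in cardiac mesenchymal stromal cells (cMSCs) of young and aged mice. They were chosen by name, and 19 of the 56605 distinct probes on the array carry 1 of these names. Hearts of male C57BL/6 mice gave 4 young pools (5 months by the labels) and 4 aged pools (20 months), with no treatment or engineered allele named there. Each pool held 3 mice according to the design text, although the label code of aged pool 4 can be read as 2 mice. The paper that describes the experiment names a wild-type and a reporter line, and the labels do not tell which of them gave these pools. Live cells of the digested ventricles that carried Sca-1 and PDGFRα and lacked CD45 and CD31 were sorted, lysed and frozen without culture. The pools are called young 2, 3, 4 and 5 and aged 1, 2, 3 and 4, after their labels. Pooled mice are 1 sample each, so the spread between pools is not the spread between animals.

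Fat cell formation follows a known order of factors. C/EBPβ and C/EBPδ act early after the hormonal trigger, and they raise PPARγ and C/EBPα, which keep each other on and switch on the genes of the mature fat cell. Among those genes are FABP4 and FABP5, which carry fatty acids inside the cell, lipoprotein lipase, which frees fatty acids from circulating triglyceride, CD36, which takes them up, perilipin 1, which coats the lipid droplet, and adiponectin, a hormone made by fat cells. Stromal cells that carry PDGFRα can give rise to fat cells in several tissues. Several of these genes are also used outside fat, FABP4 and CD36 by capillary endothelial cells and macrophages, and lipoprotein lipase by heart muscle.

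Each gene was read by probes of 60 bases. The 4 probes shown were chosen by hand. Those of Lpl and Fabp4 are further probes, not the brightest ones from which these genes were read. They are the pair of Lpl probes on which no aged pool overlapped a young one, the second probe of Fabp4, and the only Adipoq probe, which did not rise above background. They are printed 5′ to 3′ as the array files give them, all in lower case because no part is singled out, with positions on the mouse genome build mm9.
Lpl probe A_66_P123790, chr8:71419652-71419711, plus strand: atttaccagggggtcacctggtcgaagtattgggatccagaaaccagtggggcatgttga
Lpl probe A_52_P257812, chr8:71425050-71425109, plus strand: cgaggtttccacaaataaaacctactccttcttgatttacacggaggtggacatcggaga
Fabp4 probe A_52_P564544, chr3:10208442-10208501, minus strand: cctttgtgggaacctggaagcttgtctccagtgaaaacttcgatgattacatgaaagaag
Adipoq probe A_51_P458451, chr16:23157576-23157635, plus strand: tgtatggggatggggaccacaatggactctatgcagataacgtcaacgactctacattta
Each of these 4 sequences holds at least 1 reading frame without a stop codon along its whole length. The choice took this property in, so it is a description and not a result. Whether a probe lies in an exon or an untranslated region was not looked up, since no gene models of mm9 were used here.

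Levels are log2 of the processed signal relative to the 75th percentile of the same array, so that a level of 0 is the signal of that percentile. Probes entered the test when every array of the young or of the aged group showed them well above background, and each gene was read from its brightest such probe. Differences are aged minus young, tested with limma, with p-values adjusted by the Benjamini-Hochberg method over the 20226 genes tested. Rose and fell are used only of an adjusted p under 0.05. In sorted bulk RNA, fewer cells of a type and less RNA per cell cannot be told apart. Levels of different probes are not compared with each other, because probes differ in how well they bind.

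The arrays had similar signal ranges in both groups. Weights fitted to the arrays ran from 0.327 in young 5 to 3.15 in young 2. Their 75th percentiles ran from 479 to 816 among young pools and from 509 to 793 among aged pools, 57.8% to 63.4% of spots were well above background, and no spot was saturated. Pools of 1 group correlated at 0.9876 to 0.9945 over the genes tested. Young 5 had the lowest median correlation with its own group, 0.9891, and values without it are given beside results that it moves. All 15 cMSC markers were measured, with 6 at an unadjusted p under 0.05, beside 14.2% of all genes. The groups did not overlap on 5 of the 15, beside 10.7% of all genes. Thy1 (CD90) fell by 0.71 on the log2 scale (adjusted p = 0.0476). Of the markers of the sort, Ly6a (Sca-1) had a difference of 0.67 (adjusted p = 0.0516) with all aged pools above all young ones, and Pdgfra one of -0.21 (adjusted p = 0.346).

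Of the 10 genes, 8 had a kept probe, and none of these rose or fell between young and aged cMSCs by limma. Over all genes tested, 3.17% were called, 2.37% higher and 0.801% lower in aged pools. At an unadjusted p under 0.05, 1 of the 8 genes passed, Pparg, beside 14.2% of all genes. The same gene was the only one of the 8 on which no aged pool overlapped a young one, beside 10.7% of all genes (6.68% with the aged pools above and 4.05% below). These shares are near those of the array as a whole. The median difference of the 8 genes was 0.14, and that of all genes tested was 0.0014. In simulated data with 200 changed genes, only 26.9% of changes of 0.5 on the log2 scale were called. All 8 differences were smaller than 0.5, so a missing call does not mean that a gene was unchanged.

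**Figure D1:**
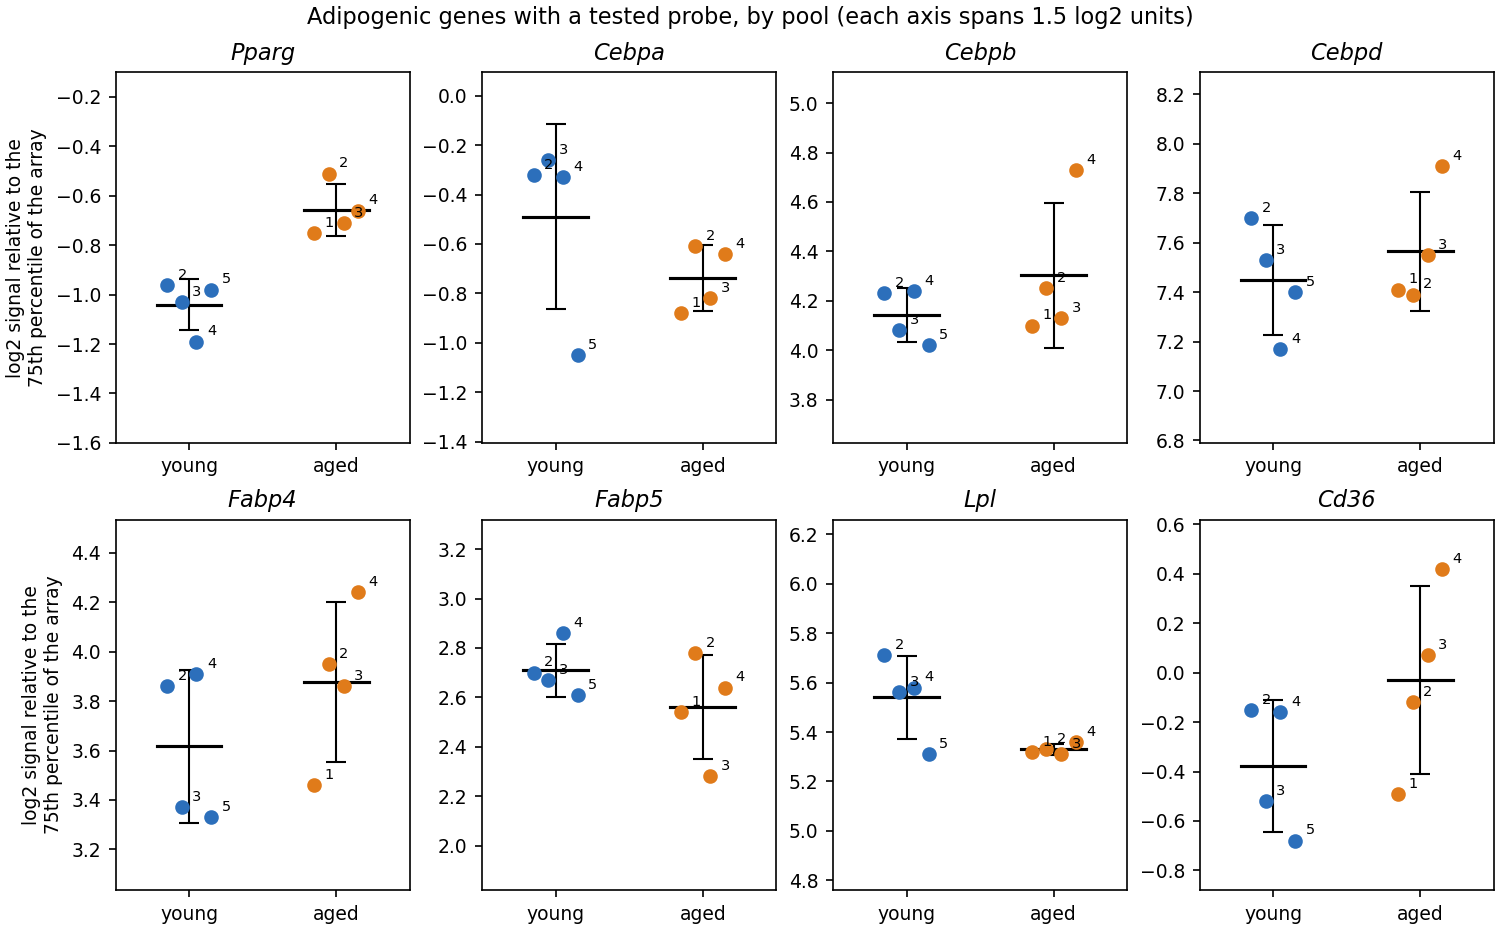
Level of the 8 measured genes in every pool, as log2 signal with the 75th percentile of its array set to 0. Points are pools with their label numbers, bars are group means with 1 SD (n = 4), and each axis spans the same number of log2 units. The aged pools of Pparg lie between -0.75 and -0.51, all above the young pools, and the groups overlap on the other genes.

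Neither of the early factors rose or fell, by limma. Cebpb, the first to act, stood at 4.23, 4.08, 4.24 and 4.02 in young 2 to 5 and at 4.10, 4.25, 4.13 and 4.73 in aged 1 to 4. Apart from aged 4, the aged pools lay within or close to the young range. The difference was 0.16 (SE 0.15, 95% interval -0.17 to 0.49, adjusted p = 0.745), and 0.020 without aged 4.

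Cebpd, the partner of Cebpb early in fat cell formation, stood at 7.70, 7.53, 7.17 and 7.40 in the young and at 7.41, 7.39, 7.55 and 7.91 in the aged pools. Aged 4 was again the highest pool, and the groups overlapped. The difference of 0.11 (SE 0.15, 95% interval -0.23 to 0.46, adjusted p = 0.857) turned to -0.0020 when aged 4 was left out.

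Pparg, the receptor whose activity defines the fat cell lineage, was measured by probe A_51_P106799 (mm9 chr6:115440213-115440272, plus strand). Its level was -0.96, -1.03, -1.19 and -0.98 in young 2 to 5 and -0.75, -0.51, -0.71 and -0.66 in aged 1 to 4. All aged pools lay above all young pools. The difference was 0.38 (SE 0.088, 95% interval 0.18 to 0.58), a fold of 1.30 (1.13 to 1.49), with an unadjusted p of 0.00218 in limma and an adjusted p of 0.0601. It missed the threshold over all genes, and the exact permutation test of 4 against 4 pools gave its smallest possible two-sided p, 0.029. Within the rows of the slide the difference was 0.29 in row 1 and 0.47 in row 2. Leaving out any 1 pool left the difference between 0.33 and 0.41 and the adjusted p between 0.0872 and 0.136. With arrays weighted by their quality the gene passed, with a difference of 0.31 and an adjusted p of 0.0420, and over all 23 alternatives the adjusted p ran from 0.0420 to 0.313. A second Pparg probe, named after an alternatively spliced transcript, was well above background on none of the 8 arrays.

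Cebpa, which works with Pparg in the later steps, leaned the other way. It stood at -0.32, -0.26, -0.33 and -1.05 in young 2 to 5 and at -0.88, -0.61, -0.82 and -0.64 in aged 1 to 4. Of the young pools 3 lay above every aged pool, and young 5 lay below all of them. The difference was -0.25 (SE 0.18, 95% interval -0.65 to 0.16, adjusted p = 0.66). Without young 5 it was -0.43 with an adjusted p of 0.0656, and over all 23 alternatives the lowest adjusted p was 0.0564.

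Fabp4, the fatty acid carrier used as a marker of fat cells and of capillaries, had levels of 3.86, 3.37, 3.91 and 3.33 in young 2 to 5 and of 3.46, 3.95, 3.86 and 4.24 in aged 1 to 4. In both groups some pools were high and some were low, and the groups overlapped. The difference was 0.26 (SE 0.20, 95% interval -0.19 to 0.71, adjusted p = 0.674), and it was 0.17 without young 5, 0.14 without aged 4 and 0.40 without aged 1. The probe lies at mm9 chr3:10204452-10204511 on the minus strand. The second Fabp4 probe, the one printed above, stood at 1.43, 1.14, 1.49 and 0.52 in the young and at 1.04, 1.59, 1.47 and 1.81 in the aged pools. The order of the pools was nearly the same on both probes, with young 5, young 3 and aged 1 lowest and aged 4 highest. Its difference was 0.34 (SE 0.24, 95% interval -0.20 to 0.88, adjusted p = 0.653 over all kept probes), and 0.13 without young 5.

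Cd36, the fatty acid translocase, was measured by 1 probe (mm9 chr5:17288600-17288659, minus strand). Its level was -0.15, -0.52, -0.16 and -0.68 in young 2 to 5 and -0.49, -0.12, 0.07 and 0.42 in aged 1 to 4. Aged 3 and aged 4 lay above every young pool, while aged 1 lay among the low young pools. The difference was 0.35 (SE 0.20, 95% interval -0.12 to 0.81, adjusted p = 0.54), and 0.20 without aged 4.

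The differences of both genes were larger in 1 row of the slide. Row 1 held young 3, young 5, aged 1 and aged 4, and row 2 held the other pools. For Fabp4 the difference was 0.51 within row 1 and 0.022 within row 2. For Cd36 it was 0.56 within row 1 and 0.13 within row 2. With the row as a block the adjusted p was 0.581 for Fabp4 and 0.494 for Cd36.

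The summed level of markers of capillary endothelial cells, which the CD31 gate should remove, also followed these pools. All 18 markers of that list were measured and none rose or fell by limma. At an unadjusted p under 0.05, 2 passed, beside 14.2% of all genes. Their summed level, the log2 of their added signals, was 5.46, 5.27, 5.40 and 4.97 in young 2 to 5 and 5.11, 5.48, 5.30 and 5.50 in aged 1 to 4. Young 5 and aged 1 were the lowest pools of that sum and aged 4 was the highest. Bright probes such as those of Egfl7 and Eng weigh most in it, and single markers could go otherwise. Tek stood at 1.66 in young 5, with all aged pools below all young ones. Meox2 stood at 2.35 in aged 1, with all aged pools above all young ones. Pecam1, the gene of CD31, was lowest in young 5 (-2.56) but highest in young 3 (-2.06), with aged 1 at -2.35 and aged 4 at -2.25. Of the 16 macrophage and monocyte markers 13 were measured, and Fcgr1, Cx3cr1 and Ccr2 were not above background on every array of a group. Of the 13, 1 rose, Cd14, beside 2.37% of all genes. Their summed level was 2.73 to 3.41 in the young and 3.16 to 3.78 in the aged pools, lowest in young 5 and highest in aged 4. The part of either cell type in the levels of Fabp4 and Cd36 was not tested.

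Marker lists of 5 other cell types that the sort should leave out were read in the same way. Of 7 measured neutrophil markers 3 rose, S100a9, Ly6g and Camp, beside 2.37% of all genes, with S100a9 highest in aged 4. The S100a9 probe was well above background on 3 of 4 young and on 4 of 4 aged arrays. It thus entered the test through the aged group alone. The summed neutrophil level was 5.96 to 6.44 in the young and 5.77 to 6.52 in the aged pools. Csf3r alone stood at 5.91 to 6.41 in the young and 5.67 to 6.34 in the aged pools, so that sum is mostly Csf3r. Its difference was -0.07, while S100a8 had 2.49 (adjusted p = 0.0938) and S100a9 4.32 (adjusted p = 0.0369), in limma. Dmkn rose among 4 measured mesothelial markers, Mbp among 5 Schwann cell markers and Cd2 among 4 lymphocyte markers, again beside 2.37% of all genes. Cd2 also entered through the aged group alone, with 3 of 4 young and 4 of 4 aged arrays well above background. The summed mesothelial level was -1.69 to -0.99 in the young and 0.19 to 0.73 in the aged pools, and that of Schwann cells 1.27 to 1.47 and 1.69 to 1.92, so on both the aged pools lay above the young ones. Lymphocyte markers summed to between -0.96 and -0.24 in the young and between -0.58 and -0.36 in the aged pools. Of 10 pericyte and smooth muscle markers none rose or fell by limma. At an unadjusted p under 0.05, 4 passed, beside 14.2% of all genes. Their summed levels were 4.89 to 5.07 in the young and 4.72 to 4.95 in the aged pools. The part of these cell types in the levels of the adipogenic genes was not tested.

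**Figure D2:**
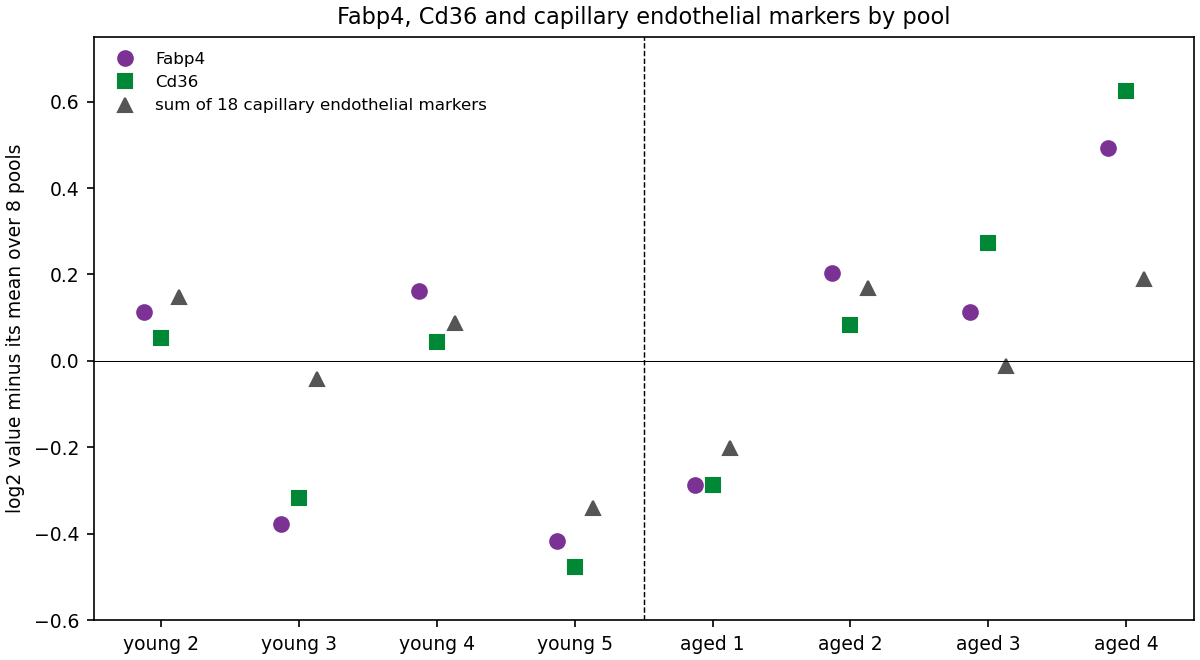
Level of Fabp4, level of Cd36 and summed level of 18 capillary endothelial markers in each pool, each as a log2 value minus its own mean over the 8 pools. Young 5 and aged 1 lie low and aged 4 lies high on all 3, and the groups overlap on each.

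Fabp5, the relative of Fabp4 that also occurs in skin and macrophages, showed a narrow range. It stood at 2.70, 2.67, 2.86 and 2.61 in young 2 to 5 and at 2.54, 2.78, 2.28 and 2.64 in aged 1 to 4. The groups overlapped, with aged 3 the lowest pool. The difference was -0.15 (SE 0.12, 95% interval -0.41 to 0.12, adjusted p = 0.696), and -0.054 without aged 3.

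Lpl, which encodes lipoprotein lipase, was measured by 6 probes along chromosome 8. The brightest one, which stood for the gene, lies at mm9 chr8:71430267-71430326 on the plus strand. Its level was 5.71, 5.56, 5.58 and 5.31 in young 2 to 5 and 5.32, 5.33, 5.31 and 5.36 in aged 1 to 4. The aged pools lay close together and below 3 of the young pools, and young 5 lay among them. The difference was -0.21 (SE 0.094, 95% interval -0.43 to 0.0021), with an adjusted p of 0.36. Within the rows of the slide it was -0.098 in row 1 and -0.33 in row 2. Without young 5 the difference was -0.29 and the adjusted p 0.101, and with weighted arrays, where young 5 had the lowest weight, the gene passed with a difference of -0.32 and an adjusted p of 0.0313. Over all 23 alternatives the adjusted p of Lpl ran from 0.0313 to 0.786.

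The other pair of Lpl probes named after the same RefSeq transcript, those printed above, separated the groups. Probe A_66_P123790 stood at 0.47, 0.47, 0.67 and 0.62 in the young and at 0.18, 0.03, 0.08 and 0.38 in the aged pools. Probe A_52_P257812 stood at 2.91, 2.92, 2.93 and 3.20 in the young and at 2.61, 2.53, 2.57 and 2.83 in the aged pools. On both, every aged pool lay below every young pool, young 5 included. The differences were -0.39 (95% interval -0.62 to -0.16) and -0.36 (95% interval -0.59 to -0.12), and -0.37 and -0.28 without young 5. Their adjusted p over all kept probes were 0.0968 and 0.141 in limma, so neither passed, where 2.53% of kept probes did and the groups did not overlap on 10.1%. With weighted arrays the first of them passed, with a difference of -0.39 and an adjusted p of 0.0442, and the second did not, at -0.34 and 0.0564. Over the 18 alternatives run on single probes the adjusted p of the first ran from 0.0442 to 0.371, and that of the second from 0.0564 to 0.562.

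The remaining 3 Lpl probes lie towards the start of the gene and did not follow that pattern. They are named after cDNA clones from dendritic cells of NOD-derived mice, in 2 cases, and after an Ensembl transcript in the other. The first was -1.49, -1.84, -1.43 and -0.51 in the young and -1.23, -1.05, -1.44 and -1.82 in the aged pools, a difference of -0.069 (95% interval -0.71 to 0.57). The second, with a difference of -0.079 (95% interval -0.85 to 0.69), also had young 5 as its highest pool. Without young 5 these differences were 0.20 and 0.25. The third was -1.53, -1.63, -1.49 and -2.48 in the young and -1.43, -1.63, -1.38 and -1.28 in the aged pools, a difference of 0.35 (95% interval -0.14 to 0.84) with young 5 as the lowest pool, and of 0.12 without it. Young 5 was thus the highest or the lowest young pool on 5 of the 6 probes. Whether the differences of the 6 probes differ from each other was not tested.

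**Figure D3:**
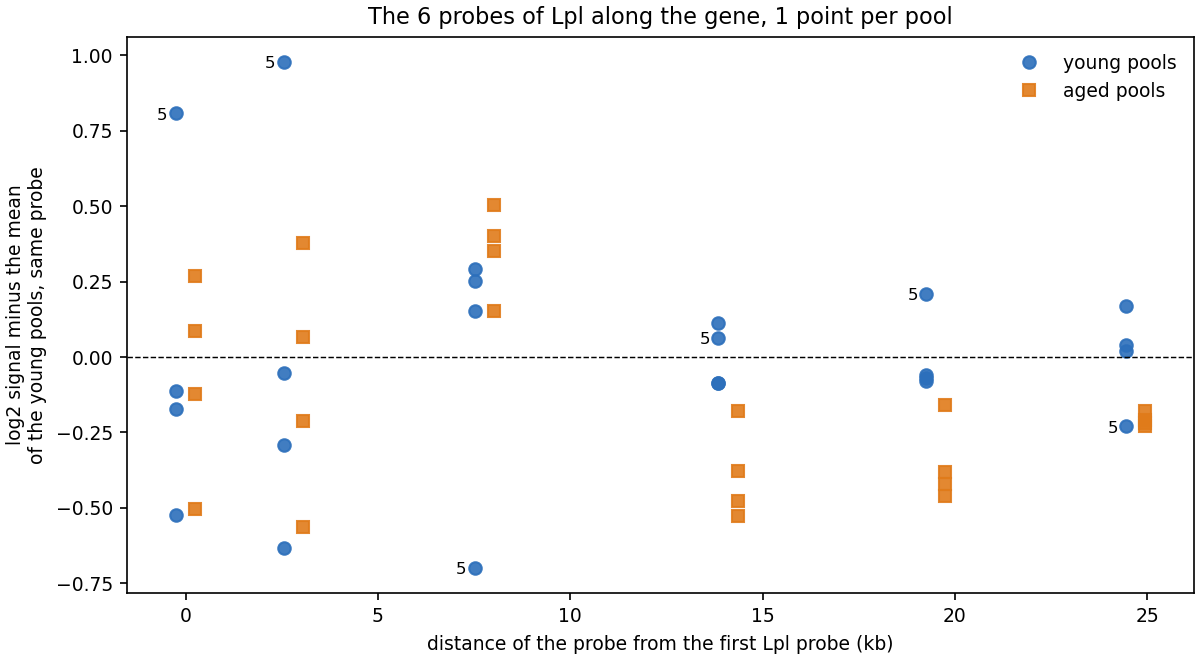
The 6 Lpl probes by distance from the first probe in kb, with 1 point per pool showing the log2 signal minus the mean of the young pools on the same probe. The digit 5 marks young 5. At 14.1 and 19.5 kb the aged pools lie below all young pools, and at 0, 2.8, 7.77 and 24.7 kb the groups overlap.

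Plin1 and Adipoq, the most specific fat cell genes of the set, were not measured above background. The only Adipoq probe was well above background on none of the 8 arrays, with processed signals of 2.9 to 5.0 against a 75th percentile of at least 479. Of the 3 Plin1 probes, 1 was well above background on 1 aged array and on no young array, with processed signals of 4.0 to 25.4, and the other 2 on none. No fold is given for either gene. Of 12 further markers of the mature fat cell 8 were measured, and Retn, Cfd, Cidec and Pnpla3 were not well above background on all arrays of a group. The summed level of the 8 was 1.56 to 1.89 in the young and 1.44 to 1.59 in the aged pools. Of these, 1 was higher in aged pools, Adrb3, beside 2.37% of all genes. Another was lower, Slc2a4, beside 0.801%, and both are described below.

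**Figure D4:**
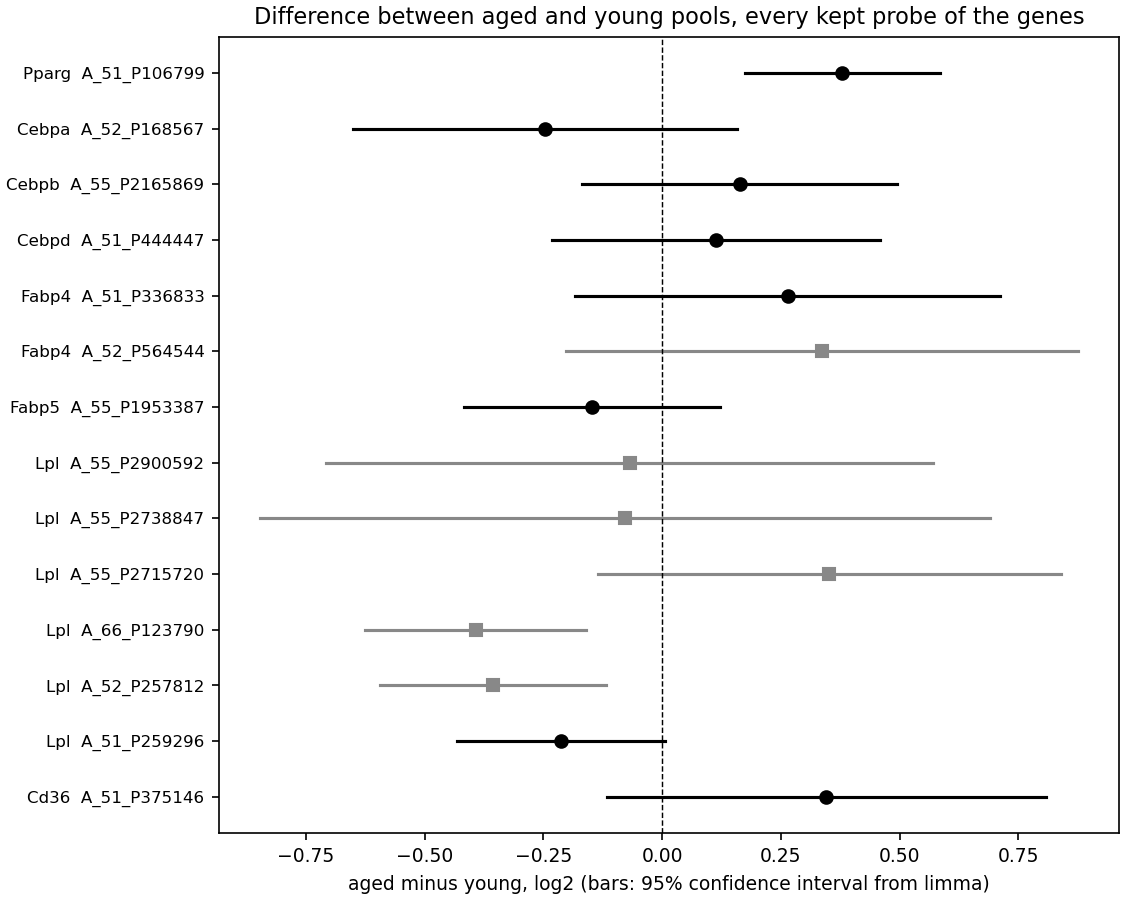
Difference between aged and young pools in log2 units for each of the 14 kept probes of the 8 measured genes, with the 95% confidence interval from the limma fit over all kept probes. Round black points are the probes that stood for their gene and grey squares are further probes. The interval lies above 0 for Pparg and below 0 for 2 of the 6 Lpl probes, and spans 0 for the rest.

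Genes whose levels followed those of Pparg, Fabp4 and Cd36 over the 8 pools were ranked by Pearson's r. Those most like Pparg were Actr3b (0.982), Slc2a13 (0.977) and Tlr2 (0.974), and Tlr2, a receptor for bacterial lipoproteins, was 0.37 higher in aged pools (adjusted p = 0.0497). Those most like Fabp4 were Mfng (0.985), Rasgrf2 (0.971) and Llgl2 (0.968). Those most like Cd36 were Txnrd1 (0.962), Rassf1 (0.961) and Fabp4 itself (0.955). The points share their arrays, and these are the highest values out of all genes tested, so they are a description.

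The wider programme was read from 5 lists of genes. Of 164 genes listed 141 were measured, and 7 of these were called, 4 higher and 3 lower in aged pools. That is 4.96% beside 3.17% of all genes. The lists were chosen with earlier results of these data known, so the comparison is a description. Adrb3, among those higher, entered through the aged group alone. With probes required to be well above background on all 8 arrays, 3 were higher and 3 lower. The groups did not overlap for 20 of the 141, beside 10.7% of all genes, and the median difference was -0.028. At an unadjusted p under 0.05, 28 of the 141 passed, beside 14.2% of all genes. The 23 genes that were not measured include Fabp1, Fabp7, Pck1, Cidec, Retn and Cfd.

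Among 52 measured factors and signalling genes of fat cell formation, 1 fell and none rose by limma, beside 0.801% and 2.37% of all genes. An unadjusted p under 0.05 was reached by 10, beside 14.2% of all genes, and the median difference was -0.067. The gene that fell was Rxrg, which encodes a retinoid X receptor, the partner class with which PPARγ binds DNA. Its level was -2.43, -2.34, -2.44 and -2.27 in the young and -3.09, -2.72, -3.08 and -2.73 in the aged pools. The groups did not overlap, and the difference was -0.54 (SE 0.11, adjusted p = 0.0410). The call was lost without young 2, 3, 4 or 5 or aged 1 or 3, with adjusted p of 0.0857 to 0.116. It passed under 11 of 23 alternatives, with adjusted p from 0.0085 to 0.408, and with normexp the difference was -0.31. Rxra and Rxrb, of the same receptor class, were not called by limma. Their differences were -0.0036 (adjusted p = 0.993) and -0.022 (adjusted p = 0.955), and a further Rxra probe had -0.50. After Rxrg, the largest difference of the list, by the probe that stood for each gene, belonged to Stat3. This transcription factor downstream of cytokine receptors had 0.48 (SE 0.13, adjusted p = 0.0946).

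Of 26 measured genes of fatty acid uptake, binding and lipase partners, 2 rose and none fell by limma, beside 2.37% and 0.801% of all genes. An unadjusted p under 0.05 was reached by 4, beside 14.2% of all genes, and the median difference was 0.11. Slc27a3, a member of the fatty acid transport protein family, stood at 1.43, 1.19, 1.43 and 1.14 in the young and at 2.01, 2.09, 1.85 and 1.69 in the aged pools. Acsl4, which joins long polyunsaturated fatty acids to coenzyme A, stood at 2.46, 2.24, 2.43 and 2.29 in the young and at 2.65, 2.81, 2.92 and 2.73 in the aged pools. On both genes all aged pools lay above all young ones. The differences were 0.61 (SE 0.12, adjusted p = 0.0281) for Slc27a3 and 0.42 (SE 0.091, adjusted p = 0.0458) for Acsl4. On the other pair of Acsl4 probes the differences were 0.26 and 0.24 and the groups overlapped. Slc27a3 lost its call without young 3 or 5 or aged 1, 2 or 3, with adjusted p of 0.065 to 0.0856, and Acsl4 lost it without any 1 of the 8 pools, with adjusted p of 0.0706 to 0.131. Slc27a3 passed under 14 and Acsl4 under 8 of 23 alternatives.

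Of 20 measured genes of the lipid droplet and of lipolysis, 2 were called by limma, beside 3.17% of all genes. An unadjusted p under 0.05 was reached by 4, beside 14.2% of all genes, and the median difference was 0.0071. The called gene that rose was Adrb3, the adrenergic receptor typical of fat cells, which starts lipolysis when catecholamines bind. It stood at -5.13, -5.75, -5.57 and -5.76 in the young and at -3.87, -4.35, -4.09 and -3.46 in the aged pools. Every aged pool lay above every young pool. The probe was well above background on 1 of 4 young and on 4 of 4 aged arrays, so it entered the test through the aged group alone and its young level was mostly not measured. On these signals the difference was 1.61 (SE 0.21, adjusted p = 0.00578). Its size depended on the background correction, with 0.68 in the authors' log2 table and 0.44 with normexp, where the call was lost (adjusted p = 0.38, the highest of 22 alternatives, from 0.0025).

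Of 22 measured genes of triglyceride and fatty acid synthesis, 1 fell and none rose by limma, beside 0.801% and 2.37% of all genes. An unadjusted p under 0.05 was reached by 5, beside 14.2% of all genes, and the median difference was -0.088. Slc2a4, the insulin-responsive glucose transporter GLUT4 of fat and muscle, stood at 0.59, 0.21, 0.01 and 0.12 in the young and at -0.78, -0.54, -0.90 and -0.74 in the aged pools. Every aged pool lay below every young pool, the difference was -0.97 (SE 0.14, adjusted p = 0.00788), and the call held without any 1 pool. Over 23 alternatives the adjusted p ran from 0.0021 to 0.136. Gpd1, which makes the glycerol backbone of triglyceride, followed with -0.59 (SE 0.14, adjusted p = 0.0651). Of 16 markers of heart muscle cells 14 were measured and 3 of these fell, beside 0.801% of all genes. Pln, 1 of the 3, was well above background on 4 of 4 young and 2 of 4 aged arrays. That probe entered the test through the young group alone. The other markers of the list did not pass, and among them Myh7 (0.49) and Ttn (0.27) had differences of the other sign. The summed level of the 14 was 3.98 to 4.17 in the young and 3.11 to 3.85 in the aged pools. Their part in the level of Slc2a4 was not tested.

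Of 21 measured adipokines and their receptors, 1 rose and none fell by limma, beside 2.37% and 0.801% of all genes. An unadjusted p under 0.05 was reached by 5, beside 14.2% of all genes, and the median difference was 0.038. C1qtnf3, a secreted relative of adiponectin, stood at -3.63, -4.11, -3.51 and -3.57 in the young and at -2.74, -2.78, -2.69 and -2.52 in the aged pools. All aged pools lay above all young ones, by 1.03 on average (SE 0.14, adjusted p = 0.0068), and by 1.58 on the second probe of the gene. The difference was 0.51 with normexp and 0.65 in the authors' log2 table. The call held without any 1 pool and was lost with the pool number as a block (adjusted p = 0.143, the highest of 23 alternatives, from 0.0016). Aplnr, the receptor of the adipokine apelin, had the next largest difference, -0.87 (SE 0.25, adjusted p = 0.122), with overlapping groups.

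**Figure D5:**
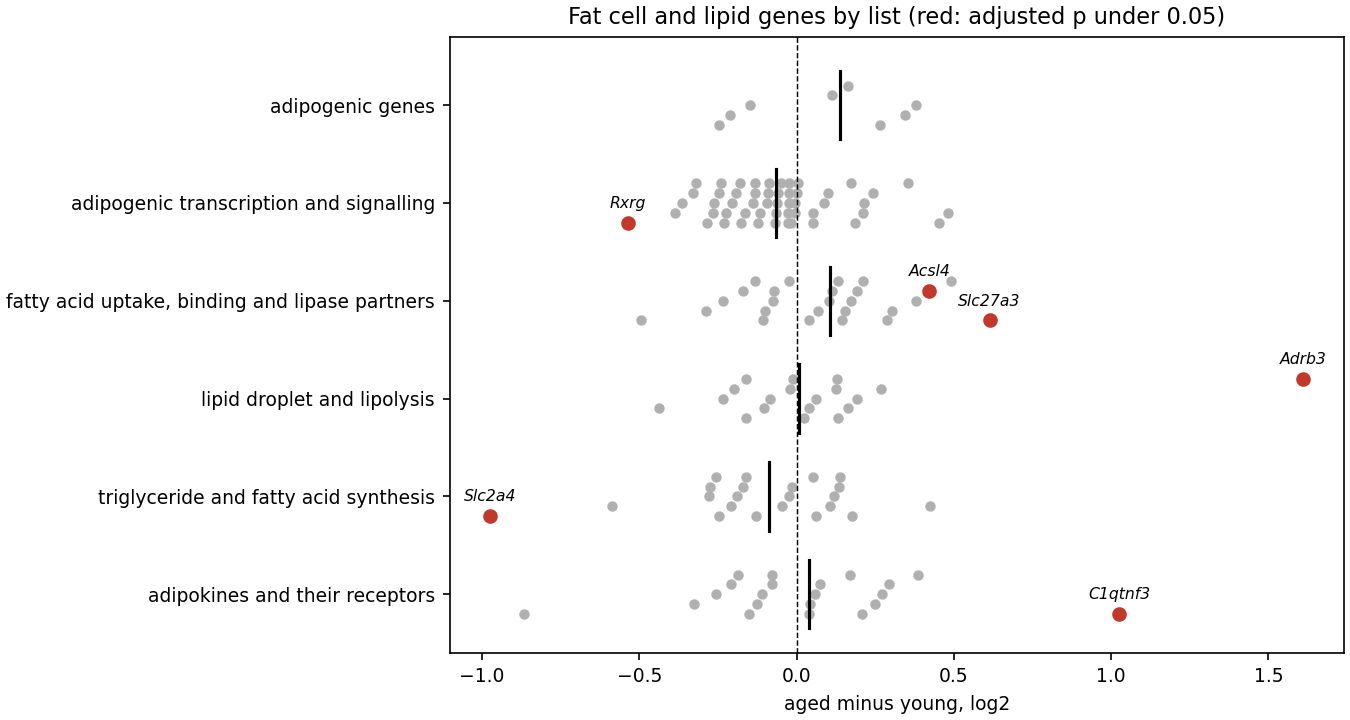
Difference between aged and young pools in log2 units for the measured genes among the 10 adipogenic genes and the 5 lists, with 1 called gene left out. Each point is a gene, red marks an adjusted p under 0.05 over all genes, and the vertical line is the median of the measured genes of the list. No adipogenic gene is red, and the medians lie between -0.088 and 0.14.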

How the data were processed

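The authors deposited the scanner output of 8 one-colour Agilent arrays, extracted with Feature Extraction 10.10.1.1, whose processed signal is an intensity with background subtracted and spatial trends removed, not normalized between arrays. They also deposited a quantile-normalized log2 table of the same arrays (median 8.12), used here as an alternative. The fit ran in R 4.3.3 with limma 3.58.1 (lmFit and eBayes) on 4 young against 4 aged pools, with 6 residual and 2.53 prior degrees of freedom. Control spots and spots with a non-uniformity or population outlier mark were dropped, and repeated spots were averaged per probe. Gene names came from a RefSeq table of GRCm38.p6, matched by accession and used for names alone (32994 probes), or else from the array files. The number of arrays limits the precision. The test was checked on simulated data drawn from the means and spreads of the genes, with 200 changed genes in each of 5 runs. Of changes of 0.5, 1 and 2 on the log2 scale, 26.9%, 76.7% and 93.6% were called in the right direction. Of the calls, 4.64% were false. The members and the gene lists were chosen with earlier results of these data known.

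Named genes are the 10 members with every probe, for each list up to 4 called genes with the smallest adjusted p, or, with fewer than 2 called, also the largest absolute differences up to 2 in all, and the 3 genes most correlated with Pparg, Fabp4 and Cd36. Rxra and Rxrb are named as relatives of Rxrg, and cell type markers where a list was checked. Further pathway members that were not measured are named as examples, chosen after their values were seen. One called gene of the lists, counted in the totals, is not reported here. Alternatives changed the normalization, background correction, filter, probe choice, blocks, weights and pools.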

Additional observations from a re-analysis of the deposited data

Results flagged for a closer look

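In 3 of the 42 groups of 4 pools examined, 1 pool stood far from the other 3, with a gap to its nearest neighbour, as a share of the range of the group, above Dixon's 95% critical value. Chance alone gives about 1 such group in 20, so 3 of 42 is near that share. The groups come from the same pools, and some are probes of the same gene, so they are not independent. All 3 were young groups, and in each the distant pool was young 5. On Cebpa the share was 0.912, with young 5 at -1.05. On Lpl probe A_52_P257812 it was 0.928, with young 5 high at 3.20, and on Lpl probe A_55_P2715720, named after the Ensembl transcript, it was 0.864, with young 5 low at -2.48.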

How the results depend on the processing

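No adipogenic gene was called under 22 of the 23 alternatives, all 8 that left out 1 pool among them (0 higher and 0 lower in each). With array weights (3.15 for young 2 down to 0.327 for young 5) there was 1 higher and 1 lower, Pparg and Lpl. That setting also turned the differences of Cebpb (-0.0092), Cebpd (-0.074) and Fabp4 (-0.029), none of them called, and Cebpd turned without aged replicate 4 (-0.0020). Of the genes of the 5 lists, 4 higher and 3 lower in the main fit, 2 were higher under median scaling, 2 higher and 1 lower with normexp, 2 higher and 1 lower with no filter on dim probes, and 9 lower with array weights. Leaving out 1 pool gave 2 to 3 higher and 1 to 3 lower. Pools of the same number did not deviate together (r of 0.181, -0.17 and -0.269 for numbers 2, 3 and 4), so the numbers are not taken as pairs. With the pool number as a replicate block, 0 list genes were called in either direction and no member was, and with the pool code as a block 2 were higher and 1 lower.

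Run on the further Lpl and Fabp4 probes, a choice made after the data had been seen, the difference of the first Lpl probe (A_55_P2900592) turned positive with the pool number as a block (0.15), with array weights (0.11), without young replicate 5 (0.20) and without aged replicate 4 (0.076), and leaving out 1 pool gave -0.24 to 0.20. That of the second (A_55_P2738847) turned positive with the same settings (0.094, 0.19, 0.25 and 0.080), and leaving out 1 pool gave -0.29 to 0.25. Why array weights and blocks moved these values was not tested. Probes near background, such as those of Adipoq and Plin1, give no bound on a change.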
